A study of Mus musculus with 12 samples.

Results

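This comparison followed gene expression over time in mouse embryonic stem cells (ESCs) that carried a control hairpin, by setting day 6 after infection against day 4. The cells were J1, an established mouse ESC line, infected with a lentivirus that carries a non-targeting short hairpin RNA (shNT), and RNA was taken at 144 hours (day 6) and at 96 hours (day 4). Of the 12 single-colour arrays of the series, 2 held shNT cells at day 6 and 2 held shNT cells at day 4. They were chosen as the columns of the deposited value table that are titled so, and every gene on the array was a member of the comparison. The other 8 arrays held shNT cells at day 2 and cells with a hairpin against Ino80 (shIno80) at days 2, 4 and 6. All samples came from the J1 line, kept in ESGRO medium and moved to M15 medium for the infection, so each one had been exposed to a lentivirus and a hairpin, and no uninfected sample is part of the series as analysed here. The study asked what the loss of Ino80, the ATPase of a chromatin remodelling complex, does to ESCs, and the shNT samples were its controls at each day.

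Mouse ESCs renew themselves under a network of transcription factors that includes Pou5f1, Nanog, Sox2, Esrrb and Klf4, and they leave that state when signals such as FGF, Nodal, BMP and Wnt change. Cells also adjust transcription to the state of their medium. In the integrated stress response, kinases that sense a shortage of amino acids, faults in protein folding or viral RNA slow translation, and the transcription factor Atf4 then induces genes of amino acid synthesis and transport. The tumour suppressor p53, encoded by Trp53, is controlled largely at the level of its protein and induces genes of growth arrest, DNA repair and cell death.

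Between 62.35% and 69.68% of spots were well above background on each of the 12 arrays, 0 to 4 spots were saturated, and processed intensities had a 75th percentile of 1162 to 1643. A gene's level is given below as log2 of its processed intensity minus the 75th percentile of its array, and levels of different genes are not compared, because each comes from its own probe. For 6 of the 12 arrays the 2 deposited records disagree on the sample, in that positions 2 and 3 of every slide swap their hairpins. Samples are taken here as the value table names them, and under that map the shNT pairs correlated across probes at r = 0.9924 at day 6 and 0.9946 at day 4, while no 2 arrays of different groups passed 0.9879. The alternative map concerns replicate 2 of shNT at both days. By the value table's map, Ino80 itself stood on the shNT arrays at 1.89 and 2.05 (day 6) and 2.26 and 2.16 (day 4). On the shIno80 arrays it stood at −0.23 and −0.01 (day 6) and −0.29 and 0.12 (day 4). The alternative map would place the arrays at −0.23 and −0.29 in the shNT pairs of days 6 and 4. Each day's 4 arrays shared 1 slide, so day and slide cannot be told apart in the shNT comparison. The labels do not say how replicate cultures were made, so p-values reflect only how much these samples differ, which may be partly technical.

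At day 6, 1503 of 19181 genes were higher in shNT cells than at day 4 (7.84%) and 1684 were lower (8.78%), together 3187 (16.6%), by limma's moderated test with an adjusted p under 0.05. Of these, 351 were higher and 465 were lower by 2-fold or more, and the median over all genes was −0.09 on the log2 scale, with a median standard error of 0.17. The count rests on how the spread is estimated and on single arrays. It came to 858 without replicate 1 of day 6, to 1052 without replicate 2 of day 6, to 1372 without replicate 1 of day 4 and to 102 without replicate 2 of day 4. With the 4 shNT arrays fitted alone it was 0 in limma, with 7131 genes at an unadjusted p under 0.05 and a smallest adjusted p of 0.0533. Under the scanner files' map it was 1, with 1117 at an unadjusted p under 0.05. In bulk RNA, fewer cells of a type and less RNA per cell cannot be told apart, which applies to every result here.

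Factors that define the pluripotent state were still expressed at day 6. Pou5f1, which encodes Oct4, stood at 5.74 and 5.87 in shNT cells at day 6, against 5.31 and 4.95 at day 4. The day 6 arrays were both above the day 4 arrays, a rise of 1.6-fold (log2 0.68 ± 0.17 SE; limma adjusted p = 0.0341). Its call was lost without either day 6 array and without replicate 2 of day 4 (log2 change 0.50 to 0.86 over the 4 fits). Nanog stood at 3.73 and 3.96 at day 6, against 3.31 and 3.17 at day 4 (log2 0.61, limma adjusted p = 0.182), and Esrrb at 4.96 and 5.38, against 4.52 and 4.39 (log2 0.72, limma adjusted p = 0.0652). For both genes the groups did not overlap, as for 27.8% of all genes with day 6 higher and 41.5% with day 6 lower, and neither passed the test. A second Esrrb probe changed by −0.16. Sox2 (log2 −0.11), Klf4 (−0.13) and Zfp42 (−0.05), a zinc finger gene typical of naive ESCs, did not pass the test. Of 27 measured genes of general and naive pluripotency, 1 rose and 2 fell, against 7.84% and 8.78% of all genes. The falls were Nr5a2, a nuclear receptor that can act on the Oct4 promoter, at 3.39 and 3.65 against 4.12 and 4.33 (log2 −0.70, limma adjusted p = 0.0363), and the zinc finger factor Zfp281, at 2.47 and 2.61 against 3.04 and 3.11 (log2 −0.54, limma adjusted p = 0.0184). The targeted gene of the series, Ino80, stood at 1.89 and 2.05 at day 6, against 2.26 and 2.16 at day 4 (log2 −0.24, limma adjusted p = 0.322). Its other 2 probes, at −0.55 and −0.97 on the log2 scale, passed the test, so the probes of this gene do not give one answer.

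All 8 defining markers of pluripotent cells were seen well above background on all 4 arrays, and their summed linear level was 622 and 679 times the 75th percentile at day 6, against 635 and 628 at day 4. Of 9 fibroblast markers, kept because feeder cells could be present, 4 were seen on all 4 arrays (Col1a1, Col1a2, Thy1 and Twist1), Postn and Lum were not seen, and none passed the test. Their summed level was 1.36 and 1.18 at day 6, against 1.31 and 1.43 at day 4. Such sums rest mostly on the brightest probes. Summed markers of trophectoderm were 1.14 and 1.12 at day 6, against 0.715 and 0.771 at day 4, with Krt7 the 1 marker of 5 measured that rose and a median log2 change of 0.05. Neural markers summed to 8.92 and 9.44 at day 6, against 5.95 and 6.1 at day 4, with a median log2 change of 0.1, and 2 of 5 rose. These were Nes, which encodes the intermediate filament nestin (1.22 and 0.59 at day 6, against −0.30 and −0.14 at day 4), and the neuronal tubulin gene Tubb3 (2.64 and 2.91, against 2.25 and 2.27). Sox1 and Pax6, which specify neural tissue, did not pass the test. Among 7 measured markers of primitive endoderm 1 rose, and among markers of primitive streak and of macrophages, endothelium and blood none did. Beside these counts, 7.84% of all genes rose and 8.78% fell. The part of these cell types in the other results was not tested.

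Among named genes seen on all 4 arrays, the 12 largest rises spanned 1.98 to 2.51 on the log2 scale and the 12 largest falls −2.52 to −1.86. Gbp2, an interferon-inducible GTPase, stood at −1.21 and −1.76 at day 6, against −3.70 and −4.28 at day 4, a rise of 5.68-fold (log2 2.51 ± 0.31 SE; limma adjusted p = 0.00541). Psmb8, a catalytic subunit of the immunoproteasome, stood at −1.50 and −2.41, against −4.04 and −4.87, and its second probe rose as well (log2 2.50 and 2.44). H2-Ab1, a chain of MHC class II, stood at −2.59 and −3.20, against −5.08 and −5.27 (log2 2.28, limma adjusted p = 0.00539), and its other probe rose by less (log2 1.07). In each of these 3 genes of antigen handling or interferon response, both day 6 arrays were more than 1 log2 unit above both day 4 arrays. They were picked from the largest rises, so this gap is no separate support. Of all genes, 27.8% had both day 6 arrays above both day 4 arrays by any amount. S100a1, a calcium-binding protein gene, stood at −2.83 and −2.87 against −4.79 and −5.20 (log2 2.14 ± 0.20 SE; limma adjusted p = 0.00277). Mvb12b, a subunit of the ESCRT-I sorting complex, stood at −0.08 and −0.12, against −2.0 and −2.16 (log2 1.98, limma adjusted p = 0.00146). Duox2, an oxidase that makes hydrogen peroxide, Slc39a8, a zinc transporter, Creb3l3, a membrane-bound transcription factor, and Pkdcc, a secreted kinase, rose by 1.98 to 2.36 on the log2 scale. Their means at days 2, 4 and 6 formed a rising series only in Slc39a8 (−6.09, −3.54 and −1.18). Day 4 was the lowest for Duox2 (−1.81, −5.01 and −2.89), Creb3l3 (−1.22, −3.75 and −1.67) and Pkdcc (−3.58, −4.36 and −2.37). For the other 3 of the 12, 1 day 6 array set much of the size. Vmo1 was −3.43 and −0.82 at day 6 against −4.39 and −4.88 at day 4, Pxylp1 was −2.57 and 0.05 against −3.59 and −3.82, and Slc4a1, the anion exchanger of red cells, was −1.89 and −4.15 against −5.44 and −5.20. Without the higher day 6 array their changes were 1.20, 1.14 and 1.17 on the log2 scale, and Slc4a1 kept its call while Vmo1 and Pxylp1 lost theirs.

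Among the falls, Coch, which encodes the extracellular matrix protein cochlin, stood at −2.03 and −2.0 at day 6, against 0.24 and 0.48 at day 4 (log2 −2.38 ± 0.15 SE; limma adjusted p = 0.00132), and its other probe fell by 1.91 on the log2 scale. Edn2, the vasoactive peptide endothelin 2, stood at −3.83 and −3.93, against −1.71 and −1.04 (log2 −2.50, limma adjusted p = 0.00539). Ccno, a cyclin-like gene needed for multiciliated cells, stood at 0.45 and 0.31, against 2.28 and 2.53 (log2 −2.02). In Coch and Ccno the day 4 level was itself high: the day 2 means were −3.02 and 0.24, near the day 6 values for Ccno and below them for Coch. Dnah11, a dynein of cilia, and the apolipoprotein L genes Apol6 and Apol8 fell by 1.90 to 1.96 on the log2 scale. Skor1, Mgat4c, Mmd2, Crct1 and Krtap6-5 were also among the 12 falls. The size of these changes depended on the processing. With normexp correction and quantile scaling the 12 rises spanned 0.79 to 1.52 and the 12 falls −1.91 to −0.68 on the log2 scale. Without replicate 2 of day 4, 3 of the 12 rises (S100a1, Mvb12b and Pkdcc) and 2 of the 12 falls (Coch and Mmd2) still passed the test.

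**Figure D1:**
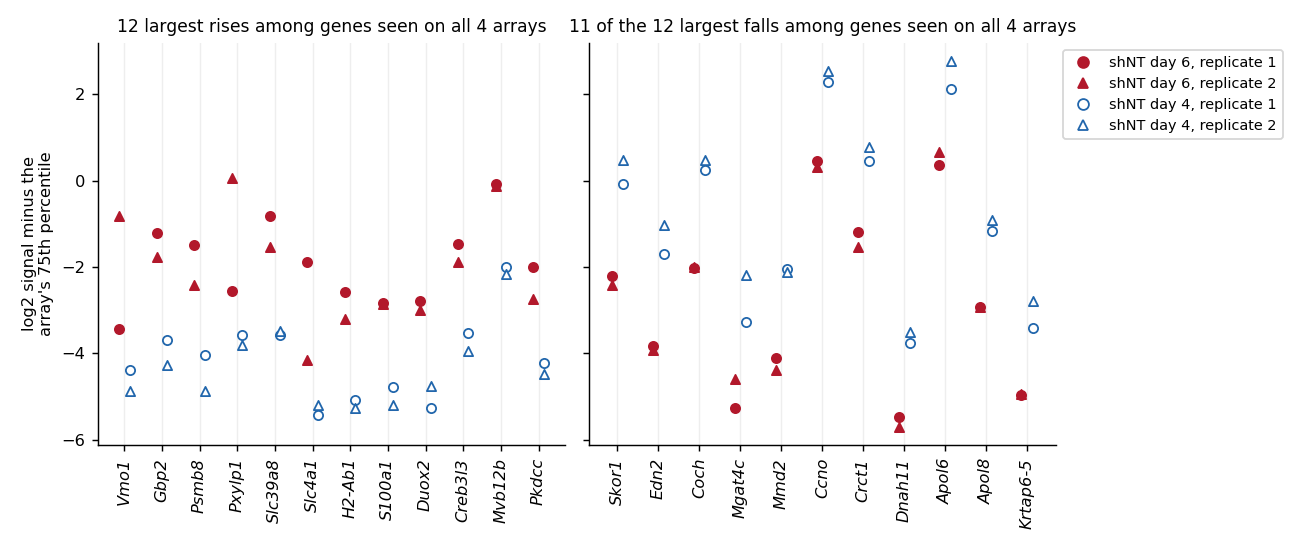
Level of the 12 largest rises (left) and of 11 of the 12 largest falls (right) in shNT cells, as log2 signal minus the array's 75th percentile, with filled symbols for the 2 day 6 arrays and open symbols for the 2 day 4 arrays. The day 6 symbols of Vmo1, Pxylp1 and Slc4a1 lie more than 2 log2 units apart, and those of S100a1, Mvb12b and Coch lie almost on each other.

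Of the called genes, 46 were well above background on both day 6 arrays and on neither day 4 array, and 154 the other way round. Over all spots, 67.3% and 62.35% were well above background on the day 6 arrays, against 69.16% and 67.2% on the day 4 arrays. The part of this in the counts was not tested. Csf1, the growth factor of macrophages, stood at −3.58 and −4.04 at day 6, against −6.19 and −5.97 at day 4, at least 4.79-fold higher (limma adjusted p = 0.00146). Olfr798, an olfactory receptor gene, was at least 5.48-fold higher (−3.54 and −3.72 against −8.43 and −7.54), and Kif12, a kinesin gene, at least 5.12-fold higher, while a second Kif12 probe changed by −1.25 and was not called. The day 2 mean of Kif12 was −3.11, so of the 3 days it was lowest at day 4. St6galnac5, a sialyltransferase gene, was −4.91 and −1.56 at day 6, and Fam216b −5.02 and −2.56, so 1 array set the size of both. Of the groups of days 4 and 6, shNT day 6 alone had Olfr798, Kif12, St6galnac5 and Fam216b well above background. The probe filter asks for only 1 such group, so it may have kept them through the group where they are high, and their calls are no separate support. In the other direction, Hs3st2, which modifies heparan sulfate, was at least 4.16-fold lower at day 6 (−8.04 and −7.81 against −4.50 and −3.22). Its day 2 mean was −8.09, so of the 3 days it was seen at day 4. Of the groups of days 4 and 6, shNT day 4 alone had Hs3st2 well above background on both arrays. The filter may have kept it through that group, so its call is no separate support either. Sec14l3, Art3, Serpinb9g and Xist, the RNA that silences an X chromosome, were at least 3.74- to 4.32-fold lower, and Xist lost its call when any 1 of the 4 arrays was left out. "At least" sets the brighter day against the lowest signal that counted as well above background on the dimmer day's arrays.

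The next list held 27 measured genes of the integrated stress response and of serine, glycine and asparagine metabolism. Of these, 13 rose, 0 fell and 14 were not called, against 7.84% of all genes rising, and the list's median was 0.42 on the log2 scale, against −0.09 over all genes. Atf4, the factor at the head of this response, stood at 3.0 and 3.06 at day 6, against 2.56 and 2.30 at day 4, a rise of 1.51-fold (log2 0.59 ± 0.11 SE; limma adjusted p = 0.0153). Phgdh, which takes the first step of serine synthesis, stood at 5.35 and 5.34, against 4.60 and 4.56 (log2 0.77 ± 0.11 SE; limma adjusted p = 0.00779), and its other 2 probes rose by 0.94 and 1.18. Psat1, the next enzyme, stood at 4.42 and 4.57, against 3.76 and 3.53 (log2 0.85, limma adjusted p = 0.00975). The third enzyme, Psph, changed by 0.22 and did not pass the test. In the mitochondrial folate cycle that uses serine, Shmt2 stood at 4.04 and 4.15, against 3.48 and 3.31 (log2 0.70), and Mthfd2 at 0.70 and 0.75, against 0.32 and 0.13 (log2 0.50). Aldh1l2, of the same cycle, had the largest change, 2.91, but its second probe changed by 0.68 and was not called, and its day 6 arrays were −1.16 and −3.92 against −5.22 and −5.69 at day 4. Without the higher array its change was 1.53 (limma adjusted p = 0.078).

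Asns, asparagine synthetase, stood at 5.90 and 5.99 at day 6, against 5.40 and 5.65 at day 4 (log2 0.42 ± 0.11 SE; limma adjusted p = 0.0387). Gpt2, the mitochondrial alanine aminotransferase, stood at 1.90 and 1.96, against 1.35 and 1.24 (log2 0.64), and Pck2, the mitochondrial form of an enzyme of gluconeogenesis, at 1.75 and 1.78, against 0.34 and 0.00 (log2 1.59). The day 2 mean of Pck2 was 1.75, above day 4 and near day 6. Chac1, which degrades glutathione, stood at 1.64 and 0.90, against 0.45 and 0.05 (log2 1.02). The stress factor Nupr1, the lipoprotein receptor Vldlr and the phosphatase subunit Ppp1r15a, which reverses the block on translation, rose by 1.27, 1.29 and 0.51. Other members of the list did not pass the test. Ddit3, which encodes the death-linked factor CHOP, stood at −1.16 and −1.30, against −1.33 and −0.99, and Trib3, an inhibitor of that response, at 2.35 and 2.02, against 2.05 and 2.28, although the second Trib3 probe rose (log2 0.54, limma adjusted p = 0.0491). Among amino acid transporters, Slc7a5, Slc3a2 and Slc7a1 changed by 0.27, 0.31 and 0.09. Atf5, a close relative of Atf4, was lower at 2.69 and 2.82 against 3.27 and 3.69, without passing the test (limma adjusted p = 0.0803). The count of rising members was 2 without replicate 1 of day 6, 6 without replicate 2 of day 6, 5 without replicate 1 of day 4, 0 without replicate 2 of day 4 and 6 with no filter on dim probes, while the list's median lay between 0.38 and 0.51 in these 5 fits.

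**Figure D2:**
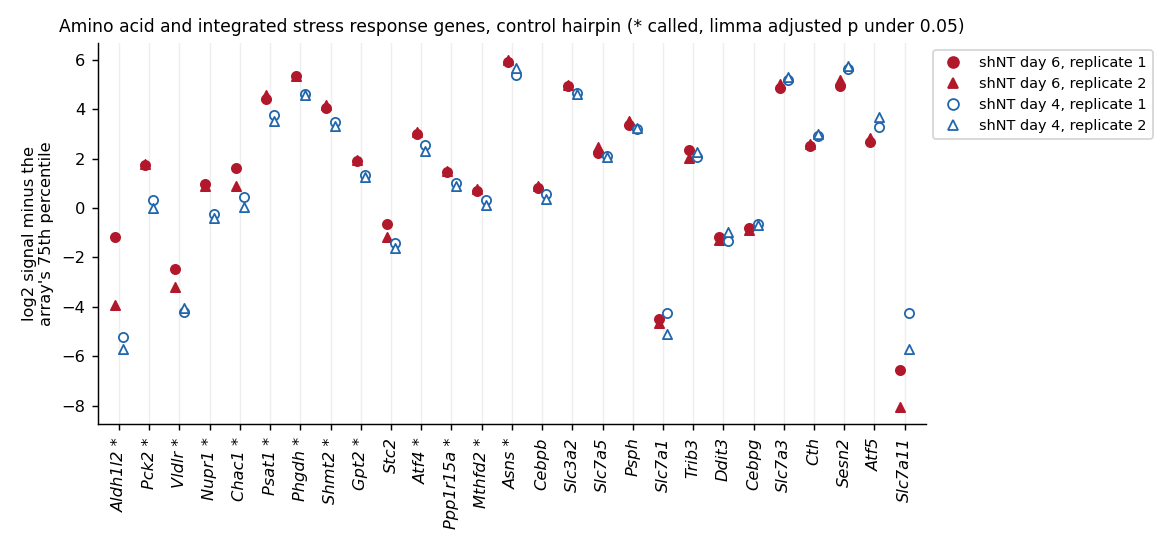
Level of the 27 measured genes of the integrated stress and amino acid response in shNT cells, as log2 signal minus the array's 75th percentile, with filled symbols for the 2 day 6 arrays, open symbols for the 2 day 4 arrays and a star on the 13 genes called. Genes run from the largest positive change, 2.91 for Aldh1l2, down to Slc7a11, which was well above background on neither day 6 array and was not called.

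Atf4 acts with C/EBP proteins on a composite DNA element, and the promoters of this list were searched for its core, TGATGNAA, on both strands. The search was chosen after the values were known. RefSeq promoters of build GRCm38.p6, 250 bases before to 50 after each start, were at hand for 23 of the 27 genes. A match was present in 7 of the 23 (30.4%), and in 4.51% of all 27025 genes searched. The list was put together from genes of this response, so its share against all genes may follow from that choice. Of the 12 members with a promoter that rose, 5 held a match, and of the other 11, 2 did (Trib3 and Slc7a11). Whether these shares differ was not tested. The windows of the 5 genes that rose are printed with the match in capitals, followed by that of Slc7a11, a cystine transporter gene that is a known target of this response and that did not rise.
Chac1 (chr2:119350992-119351291, plus strand): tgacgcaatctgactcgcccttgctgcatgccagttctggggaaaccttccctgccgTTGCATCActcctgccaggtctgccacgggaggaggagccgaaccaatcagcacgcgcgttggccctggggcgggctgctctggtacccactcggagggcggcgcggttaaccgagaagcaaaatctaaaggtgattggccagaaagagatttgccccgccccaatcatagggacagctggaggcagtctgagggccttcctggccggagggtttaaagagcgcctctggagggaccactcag
Asns (chr6:7693160-7693459, minus strand): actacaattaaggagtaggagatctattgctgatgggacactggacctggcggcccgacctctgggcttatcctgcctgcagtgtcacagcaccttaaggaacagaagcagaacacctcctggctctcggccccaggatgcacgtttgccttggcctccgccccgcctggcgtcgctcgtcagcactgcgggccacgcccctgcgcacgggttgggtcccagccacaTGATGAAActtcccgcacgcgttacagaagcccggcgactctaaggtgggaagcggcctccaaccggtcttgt
Vldlr (chr19:27216770-27217069, plus strand): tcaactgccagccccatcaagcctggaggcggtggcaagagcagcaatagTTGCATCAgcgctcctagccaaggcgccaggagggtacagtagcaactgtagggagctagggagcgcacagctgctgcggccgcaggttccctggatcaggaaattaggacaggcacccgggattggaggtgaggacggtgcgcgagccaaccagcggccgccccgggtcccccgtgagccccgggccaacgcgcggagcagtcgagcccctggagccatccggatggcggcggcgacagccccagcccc
Nupr1 (chr7:126625421-126625720, minus strand): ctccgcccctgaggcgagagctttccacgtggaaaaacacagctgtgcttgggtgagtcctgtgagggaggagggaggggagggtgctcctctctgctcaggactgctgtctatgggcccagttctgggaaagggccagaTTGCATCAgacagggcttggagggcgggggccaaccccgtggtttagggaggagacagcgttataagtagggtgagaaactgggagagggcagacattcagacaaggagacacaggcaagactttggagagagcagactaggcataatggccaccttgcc
Pck2 (chr14:55540016-55540315, plus strand): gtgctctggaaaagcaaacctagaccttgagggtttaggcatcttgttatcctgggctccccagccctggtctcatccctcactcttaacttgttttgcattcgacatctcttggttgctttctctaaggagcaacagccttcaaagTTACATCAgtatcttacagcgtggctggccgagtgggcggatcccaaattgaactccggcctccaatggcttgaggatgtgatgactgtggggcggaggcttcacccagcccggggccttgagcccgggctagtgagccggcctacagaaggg
Slc7a11 (chr3:50443564-50443863, minus strand): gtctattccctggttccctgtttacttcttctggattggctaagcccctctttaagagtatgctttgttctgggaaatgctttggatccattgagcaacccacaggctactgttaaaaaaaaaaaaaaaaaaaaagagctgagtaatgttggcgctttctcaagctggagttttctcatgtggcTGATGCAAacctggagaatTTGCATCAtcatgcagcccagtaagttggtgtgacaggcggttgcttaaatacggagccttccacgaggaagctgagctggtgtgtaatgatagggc
Chac1, Vldlr and Nupr1 hold the same 8 letters, and Slc7a11 holds those letters on both strands. Slc7a11 stood at −6.57 and −8.06 at day 6, well above background on neither array, against −4.25 and −5.69 at day 4, and its change did not pass the test (limma adjusted p = 0.111). A match is a description of these letters, and no binding was measured.

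Of 25 measured genes of the p53 list, 1 rose and 10 fell, against 8.78% of all genes falling, and the median was −0.53 on the log2 scale. Plk2, a kinase, stood at 1.51 and 1.89 at day 6, against 2.60 and 2.69 at day 4, 1.93-fold lower (log2 −0.95 ± 0.24 SE; limma adjusted p = 0.0364). Trp53inp1, a p53-induced stress protein gene, stood at 3.76 and 4.03, against 4.70 and 4.91, and both of its probes fell (log2 −0.91 and −1.05). Fas, the death receptor, stood at −3.49 and −3.55, against −2.77 and −2.62 (log2 −0.83 ± 0.11 SE; limma adjusted p = 0.00628). In these 3 genes both day 6 arrays were below both day 4 arrays, as in 41.5% of all genes. Eda2r, a receptor of the TNF family, stood at 0.47 and 0.74, against 1.22 and 1.39 (log2 −0.70), and Mdm2, the ligase that degrades p53 and is induced by it, at 2.59 and 2.88, against 3.26 and 3.31 (log2 −0.55, limma adjusted p = 0.0491). A second Mdm2 probe, at −0.25, was not called. Pmaip1, the death gene Noxa, stood at 2.09 and 2.04, against 2.59 and 2.61 (log2 −0.53). Rrm2b, a subunit of ribonucleotide reductase, Gtse1, Polk and Ei24 also fell, by 0.42 to 0.82.

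Some genes of the list did not fall. Gdf15, a secreted stress cytokine gene that is a target of Atf4 as well as of p53, stood at −0.63 and −0.44 at day 6, against −1.25 and −1.30 at day 4, and rose 1.67-fold (log2 0.74 ± 0.14 SE; limma adjusted p = 0.0159). Cdkn1a, the gene of the cyclin-dependent kinase inhibitor p21, stood at 0.46 and 0.66, against 0.16 and −0.01 (log2 0.48, limma adjusted p = 0.0806). Trp53 itself stood at 3.21 and 3.44, against 3.09 and 2.51 (log2 0.52, limma adjusted p = 0.217), so its mRNA was not called in either direction. The count of falling members was 1 without replicate 1 of day 6, 3 without replicate 2 of day 6, 3 without replicate 1 of day 4 and 0 without replicate 2 of day 4, with medians between −0.60 and −0.46. With median scaling in place of the 75th percentile it was 5, with no filter on dim probes 3, and with normexp correction and quantile scaling 17.

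**Figure D3:**
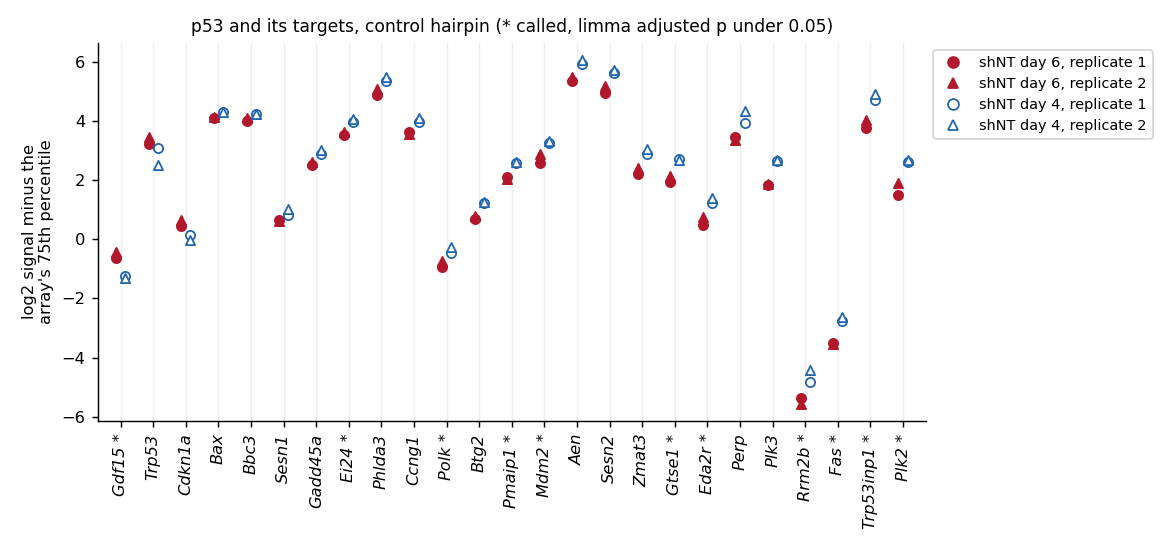
Level of the 25 measured genes of the p53 list in shNT cells, as log2 signal minus the array's 75th percentile, with filled symbols for the 2 day 6 arrays, open symbols for the 2 day 4 arrays and a star on the 11 genes called. Genes run from the largest positive change, 0.74 for Gdf15, to the largest negative one, −0.95 for Plk2.

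Genes of metabolism were among those that rose. In glycolysis and the hypoxia response, 8 of 31 measured genes rose and 1 fell (median 0.29), against 7.84% and 8.78% of all genes. Vegfa, the vascular growth factor, stood at −0.04 and −0.49 at day 6, against −1.70 and −1.94 at day 4, and all 3 of its probes rose (log2 1.56, 1.05 and 1.39). Slc2a3, a glucose transporter gene, stood at 5.65 and 5.61, against 4.60 and 4.39 (log2 1.14 ± 0.18 SE; limma adjusted p = 0.00992), while its other probe did not pass the test (0.36). Bnip3, which targets mitochondria for degradation, Aldoc, an aldolase, Egln1, the oxygen sensor of the hypoxia factor, and the enolase Eno1 rose by 0.97, 1.03, 1.00 and 0.70. The day 2 means of Vegfa, Slc2a3 and Bnip3 were 0.23, 5.27 and 3.5, above their day 4 means of −1.82, 4.49 and 2.55. The demethylase gene Kdm3a, also a hypoxia target, fell by 0.58, and its other 2 probes did not pass the test. Ldha and Slc2a1, classic targets of the same factor, changed by −0.15 and 0.02. The deposited value table gave 14 rises. Counts of rising members were 1 and 5 without replicates 1 and 2 of day 6, and 3 and 0 without replicates 1 and 2 of day 4.

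In cholesterol synthesis and uptake, 7 of 25 genes rose and 0 fell (median 0.26), against 7.84% and 8.78% of all genes. Insig1, which restrains the pathway and is itself induced by it, stood at −0.89 and −0.42 at day 6, against −1.65 and −1.84 at day 4 (log2 1.09, limma adjusted p = 0.0281). Cyp51, a demethylase of lanosterol, stood at 0.70 and 1.08, against 0.25 and 0.01 (log2 0.76), with other probes at 0.72 (called) and 0.12 (not called). Fdft1, squalene synthase, stood at 2.74 and 2.97, against 2.34 and 2.15 (log2 0.61), with a second probe at −0.65 that was not called. The sterol element TCACNCCAC, searched on both strands in the same windows, was found in 1 of 17 members with a promoter (Hmgcs1, change −0.02) and in 1.44% of all genes. Lysosome and autophagy genes had 7 rises and 0 falls among 22 (median 0.32), against 7.84% and 8.78% of all genes. Tfeb, the factor that induces lysosomal genes, stood at −0.94 and −0.66, against −1.80 and −2.10 (log2 1.15), Wipi1, an autophagy protein gene, at −0.65 and −0.61, against −1.63 and −1.70 (log2 1.04 ± 0.13 SE; limma adjusted p = 0.00551), and Hexa, a lysosomal hydrolase, at 3.12 and 3.14, against 2.37 and 2.22 (log2 0.83). The cathepsin genes Ctsb and Ctsd changed by −0.05 and 0.02. Without replicates 1 and 2 of day 6, and then 1 and 2 of day 4, the rising members were 2, 1, 1 and 0 for cholesterol and 2, 3, 2 and 0 for lysosome genes. With normexp correction and quantile scaling they were 14 and 12, and with median scaling 3 and 5.

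Genes of the contractile cytoskeleton and targets of YAP, a co-activator that responds to cell shape, had 9 rises and 0 falls among 22 measured (median 0.42), against 7.84% and 8.78% of all genes. Thbs1, thrombospondin 1, stood at −1.05 and −1.66 at day 6, against −3.02 and −2.99 at day 4, and all 3 probes rose (log2 1.65, 1.81 and 1.48). Tagln, transgelin, stood at 3.28 and 2.72, against 1.87 and 1.81 (log2 1.16 ± 0.24 SE; limma adjusted p = 0.0181), and its other probe rose by 2.06. Acta1, an actin of muscle, rose by 1.56, the calponin Cnn1 by 0.91 and the tropomyosin Tpm1 by 0.71. The YAP targets most used as readouts did not pass: Ccn2 changed by −0.79, Ankrd1 by −0.75 and Ccn1 by 0.26. The calls of this list were genes of actin, of actin-binding proteins and of the matrix. Without replicates 1 and 2 of day 6 and 1 and 2 of day 4, the rising members were 3, 5, 4 and 0.

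Adhesion genes had 8 rises and 1 fall among 21 measured (median 0.35), against 7.84% and 8.78% of all genes. The claudin Cldn4, a tight junction gene, stood at 0.59 and 0.59 at day 6, against −0.72 and −0.75 at day 4 (log2 1.32 ± 0.19 SE; limma adjusted p = 0.00744). Cldn6 stood at 2.28 and 2.04, against 1.37 and 0.86, and Cldn7 at 2.78 and 2.26, against 1.59 and 1.42, rises of 1.04 and 1.01. Itga3, an integrin that binds laminin, stood at 0.83 and 0.51, against −0.68 and −0.58, and all 3 probes rose (log2 1.30, 1.42 and 1.22). P-cadherin, Cdh3, rose by 1.00, while E-cadherin, Cdh1, changed by −0.06 and Epcam by 0.02. Itgb4, the partner of another laminin receptor, fell to 0.87 and 0.83, against 1.74 and 2.06 (log2 −1.05). Its other probes were at −1.01 (called) and 0.14 (not called). The laminin genes Lama3, Lama5 and Lamc1 fell as well, by 0.98, 0.59 and 0.56. Without replicates 1 and 2 of day 6 and 1 and 2 of day 4, the rising adhesion genes were 2, 6, 5 and 1.

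Simple-epithelium keratins rose with the claudins. Krt18 stood at 3.61 and 3.27 at day 6, against 2.09 and 2.42 at day 4 (log2 1.19 ± 0.20 SE; limma adjusted p = 0.0112). Krt8, its partner, stood at 3.01 and 2.55, against 1.44 and 1.83 (log2 1.15), and Krt7 at −0.39 and −0.40, against −1.39 and −1.31 (log2 0.95). With Tead4, a trophectoderm factor also used by YAP (log2 0.78), they make up the 4 rises among 20 genes of the trophectoderm list. It had 0 falls, and of all genes 7.84% rose and 8.78% fell. Other trophectoderm factors did not pass the test: Cdx2 stood at −3.30 and −3.45, against −3.43 and −3.21, and Gata3, Eomes and Hand1 changed by −0.27, 0.16 and 0.34. Vim, the intermediate filament of mesenchymal cells, fell to 3.77 and 3.87, against 4.64 and 4.83 (log2 −0.91 ± 0.12 SE; limma adjusted p = 0.00576). Its day 2 mean was 5.49, so the 3 days formed a falling series. The rises of this list numbered 1 and 4 without replicates 1 and 2 of day 6, and 2 and 0 without replicates 1 and 2 of day 4.

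The interferon list did not move as one. Of 42 measured genes 6 rose and 3 fell, against 7.84% and 8.78% of all genes, and the median was 0.01. Beside Gbp2 and Psmb8, the rises were the immunoproteasome subunit Psmb9, at −0.96 and −1.03 against −1.67 and −1.78 (log2 0.73 ± 0.10 SE; limma adjusted p = 0.00647), the MHC class I genes B2m, at 0.16 and 0.05 against −0.60 and −0.48, and H2-K1, at 2.27 and 2.21 against 1.59 and 1.46, and Oasl2. The last was seen on both day 6 arrays and on neither day 4 array (−4.07 and −4.73 against −5.92 and −6.83, at least 2.97-fold higher). Apart from Gbp2 and Oasl2, the rises were genes of antigen processing and presentation. Tap1 and H2-D1, genes of the same process in this list, were not among the rises. Further probes of B2m were at 0.55 (called) and −0.09 (not called), and those of H2-K1 at 1.06 (called) and 0.86 (not called). Other members fell or were not called. Ddx58, the RNA sensor RIG-I, fell to −1.32 and −1.04, against −0.58 and −0.51 (log2 −0.64), but its other probes, at −0.48 and 0.04, were not called. Zbp1 fell as well (log2 −0.93), and Ifit2 fell by 0.49. Irf9, Mx1 and Isg15 changed by 0.12, −0.25 and 0.70, none of them called. At days 2, 4 and 6 Gbp2 had means of −5.91, −3.99 and −1.48, a rising series, while the called Ddx58 probe had means of 0.60, −0.55 and −1.18, a falling one. Without replicates 1 and 2 of day 6 and 1 and 2 of day 4, 2, 4, 4 and 0 members rose.

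Among BMP genes, Id1 and Id2 fell and the ligand gene Bmp4 rose. Id1, an inhibitor of differentiation factors that BMP induces in ESCs, fell to 2.25 and 2.50 at day 6, against 3.95 and 4.24 at day 4 (log2 −1.72 ± 0.31 SE; limma adjusted p = 0.0137). Id2 fell to 1.98 and 1.99, against 2.92 and 3.35 (log2 −1.15), and Id3 changed by −0.38 without passing. Bmp4, the ligand, stood at 2.71 and 2.99, against 2.06 and 2.07 (log2 0.78), and the inhibitory Smad6 rose by 0.82. The BMP antagonist Grem1 was seen on day 4 arrays but not on day 6 arrays (at least 1.81-fold lower), and Smad5 fell by 0.70. No shIno80 array of these days had Grem1 well above background. The probe filter may have kept it through shNT day 4, so its call is no separate support. For Id1 and Id2 the day 2 means were 2.78 and 0.87, below day 4, and for Bmp4 it was 2.7, above day 4. In all, 2 of 18 genes of this list rose and 4 fell, against 7.84% and 8.78% of all genes.

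In the Wnt list 3 of 27 genes rose and 4 fell, shares near those of all genes (7.84% and 8.78%). Axin2, the usual readout of canonical Wnt signalling, fell to −2.30 and −2.64, against −1.53 and −1.37 (log2 −1.02, limma adjusted p = 0.0241). The ligand genes Wnt6 and Wnt10a, neighbours in the genome, fell to −1.95 and −2.21, against −0.54 and −0.07 (log2 −1.77), and to −3.41 and −3.59, against −2.47 and −1.90 (log2 −1.32). Nkd2, an inhibitor of the pathway, and Cdx1, a target, rose by 1.04 and 1.13. In the FGF list 1 of 16 genes rose and 2 fell, and in the immediate early list 1 of 17 rose and 2 fell, against the same shares. Egr1, a member of both, fell to 0.65 and 0.38, against 1.76 and 1.88 (log2 −1.30 ± 0.17 SE; limma adjusted p = 0.00647). In the FGF list the ETS factor gene Etv1 fell by 0.44 and the receptor gene Fgfr1 rose by 0.73. Among immediate early genes Fos fell by 0.75 and Jund rose by 0.39. The primed-state ligand Fgf5 stood at −1.17 and −1.81, against −2.69 and −2.91 (log2 1.31, limma adjusted p = 0.0221), while Nodal, which supports the same state, fell to 4.10 and 4.27, against 4.78 and 4.90 (log2 −0.65). In the LIF pathway, Stat3 fell by 0.69, and its target Pim1 rose to 0.79 and 0.96, against −0.40 and −0.78 (log2 1.46), with no call for its second probe.

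Lists of growth and division were near or below the shares of all genes, of which 7.84% rose and 8.78% fell. Of 32 genes of DNA replication 0 rose and 2 fell, the polymerase genes Pola1 and Pole (−0.57 and −0.47), and the list's median was −0.25. Of 30 mitotic genes 1 rose (Cdc25c) and 1 fell (Cenpe), of 39 ribosomal protein genes 1 fell (the paralogue Rpl39l, 3.62 and 3.82 against 4.60 and 4.66), and of 32 genes of oxidative phosphorylation 0 were called. No further test was run on the lack of calls there. Calls among cyclin-dependent kinase inhibitors went both ways. Cdkn1b, p27, rose to −0.71 and −0.67, against −1.67 and −2.15 (log2 1.22), but its second probe, at 0.14, was not called. Cdkn1c, p57, fell to 3.08 and 3.12, against 4.08 and 4.27 (log2 −1.08). H1f0, a linker histone of slowly dividing cells, rose on all 3 probes (log2 1.10, 1.60 and 1.59), and Macroh2a1 rose likewise (0.93, 0.99 and 1.34), while the replication-linked histone genes H4c9 and H1f2 fell by 1.08 and 0.90. Dnmt3l, the cofactor of de novo DNA methylation in ESCs, fell to 5.29 and 5.36, against 6.26 and 6.29 (log2 −0.95 ± 0.09 SE; limma adjusted p = 0.00272). It was among the 12 named genes that were called in all 4 fits that leave out 1 of the 4 arrays.

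Heat shock genes Hsph1 and Hspa1a fell, the first to 4.38 and 4.36, against 5.48 and 5.67 (log2 −1.21 ± 0.14 SE; limma adjusted p = 0.00496), the second by 1.18, and the small heat shock gene Hspb8 rose by 1.04. Other Hspa1a probes were at −1.07 (called), −0.54 and 0.89 (neither called). Gpx1, a selenium-dependent peroxidase, fell to 5.20 and 5.30, against 6.25 and 6.49 (log2 −1.12), and Cat, catalase, rose by 0.71. In the germ cell list 2 of 20 genes rose and 6 fell, against 7.84% and 8.78% of all genes. Dazl, an RNA-binding protein gene of germ cells, fell on both probes (−2.87 and −2.65 against −1.87 and −1.75, log2 −0.95), and the synapsis gene Sycp1 fell by 0.97, while Sycp3 rose to −1.61 and −1.74, against −2.54 and −2.50 (log2 0.84). Zfp352, of the totipotent-like state that a few ESCs enter, fell by 1.52 as the 1 call among 8 such genes, against 8.78% of all genes falling. The median of the 8 was −1.02. Hox genes had 3 rises (Hoxc4 and Hoxb6 among them) and 2 falls (Hoxd10 and Hoxb9) among 18, against 7.84% and 8.78% of all genes. A second Hoxb9 probe, at −0.19, was not called. Retinoic acid genes had 4 rises and 3 falls among 16, against 7.84% and 8.78% of all genes: the binding protein gene Crabp1 rose by 1.32 and the retinaldehyde reductase Dhrs3 by 1.16, while Meis2 and Crabp2 fell by 1.00 and 0.74.

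**Figure D4:**
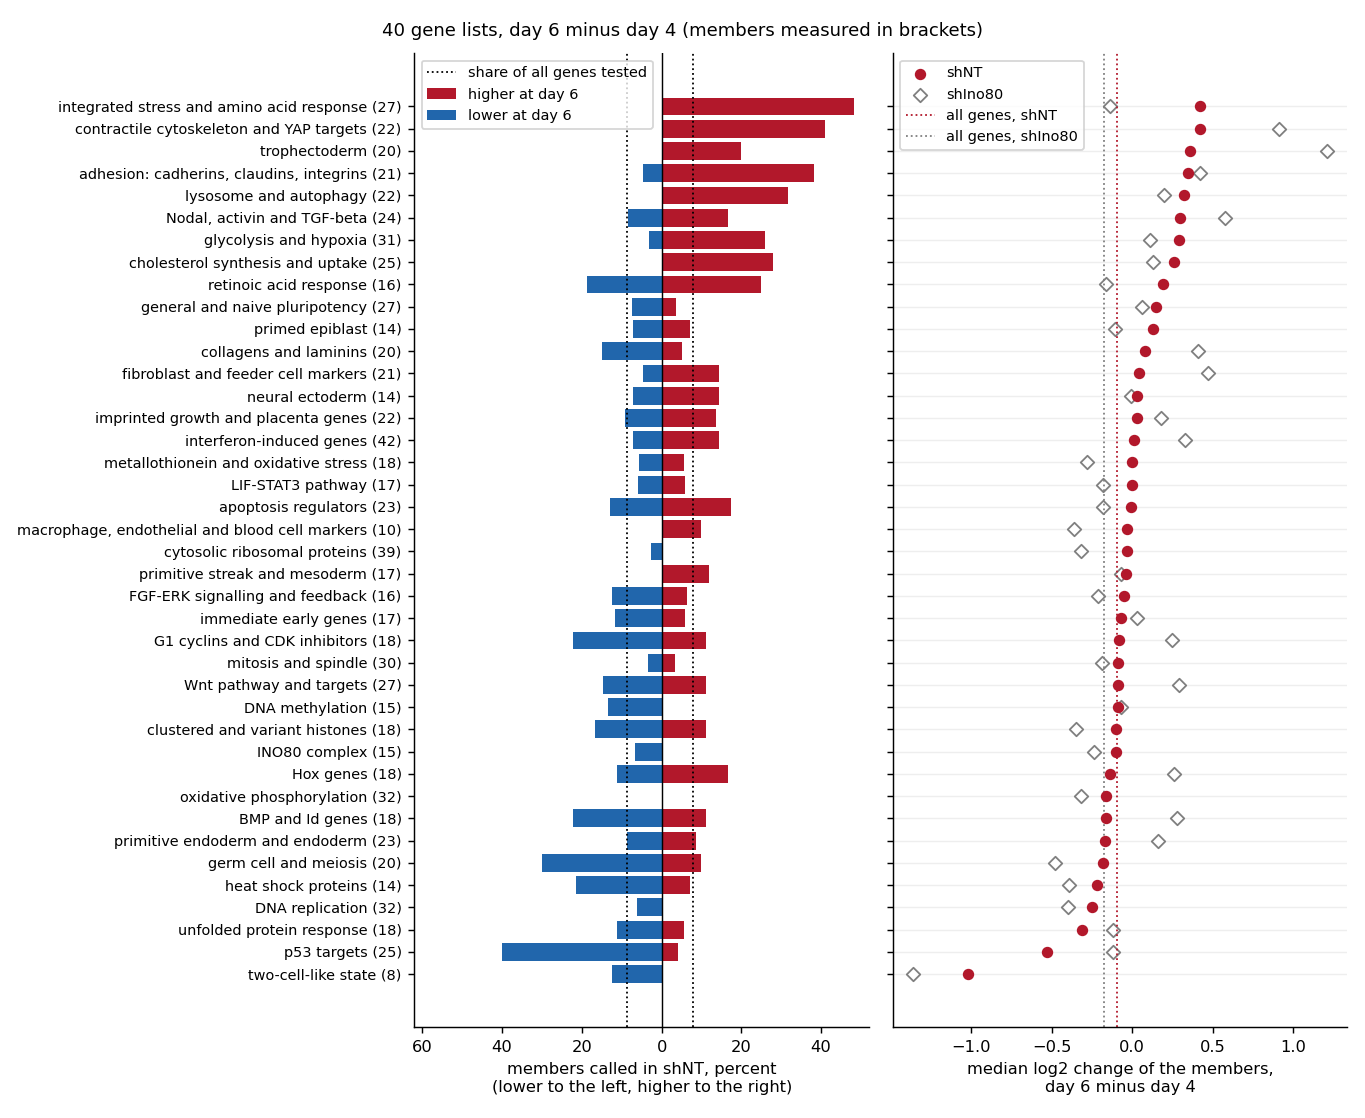
Left, share of measured members of each of 40 gene lists that were called higher (to the right) or lower (to the left) in shNT cells at day 6 against day 4, with dotted lines at the shares of all genes, 7.84% and 8.78%. Right, median log2 change of the members in shNT cells (filled) and in shIno80 cells (open), with dotted lines at the medians over all genes, −0.09 and −0.18; the stress and amino acid list is at the top with 13 of 27, and the p53 list has 10 of 25 on the lower side.

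The cells with the Ino80 hairpin passed through the same 2 days on the same 2 slides, with no sample in common. In shIno80 cells 1575 genes were higher at day 6 than at day 4 (8.21%) and 3263 were lower (17%). Genes higher in both hairpins numbered 522, which is 34.7% of the shNT rises and 33.1% of the shIno80 rises. Genes lower in both numbered 911, or 54.1% of the shNT falls and 27.9% of the shIno80 falls. Opposite calls were fewer, with 68 genes higher in shNT and lower in shIno80 and 43 the other way. The difference of the 2 changes, in which an additive slide effect cancels, was called for 728 genes (3.8%), 431 positive and 297 negative, and the direction counted here is shNT minus shIno80. With median scaling the split was 258 positive of 547, and in the values that the authors deposited it was 250 positive of 1084, where the median over all genes was −0.09 in place of 0.08. Of the 3187 genes called in shNT, 339 (10.6%) were also called by the difference, so for most of them a difference from shIno80 was not shown. The count was 350 and 527 without replicates 1 and 2 of shNT at day 6, and 307 and 200 without replicates 1 and 2 at day 4.

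The difference from shIno80 passed the test for 3 of the 24 largest changes (S100a1, Coch and Dnah11), against 3.8% of all genes. These 24, 12 in each direction, were chosen by their size in shNT, so smaller sizes in shIno80 may follow from that choice. The sizes in shIno80 varied. Some were close to those in shNT. Gbp2 changed by 2.51 in shNT and 2.34 in shIno80, Mvb12b by 1.98 and 1.91, Skor1 by −2.52 and −2.30, Mmd2 by −2.17 and −2.47, and Apol8 by −1.90 and −1.98. None of these differences passed the test. Others were smaller in shIno80 or had the other sign, as in Vmo1 (2.51 in shNT and 0.14 in shIno80), Duox2 (2.12 and −0.33), Slc4a1 (2.30 and −0.54), S100a1 (2.14 and 0.47), Creb3l3 (2.07 and 0.28) and Dnah11 (−1.96 and −0.16). For Vmo1 and Slc4a1, 1 shNT day 6 array set much of the size in shNT. The stress and amino acid list had a median of 0.42 in shNT and −0.14 in shIno80. It had 13 rises and 0 falls in shNT, and 2 rises and 4 falls in shIno80. Over all genes the shIno80 median was −0.18, with 8.21% higher and 17% lower. The difference of the changes passed the test for 3 of the 27 members, against 3.8% of all genes. Asns stood at 5.92 and 5.84 in shIno80 cells at day 6, against 6.17 and 6.21 at day 4, and the difference of the changes was 0.73 (limma adjusted p = 0.0441). Gpt2 stood at 0.10 and 0.11 in shIno80 cells at day 6, against 0.67 and 0.48 at day 4 (difference 1.10, limma adjusted p = 0.013), and Mthfd2 at −0.06 and −0.13, against 0.43 and 0.19 (difference 0.91, limma adjusted p = 0.033). For Atf4 the difference of 0.49 did not pass (limma adjusted p = 0.151). In the p53 list the medians were −0.53 in shNT and −0.12 in shIno80, and the difference passed for Fas (−1.13) and Gdf15 (1.59). The contractile list had medians of 0.42 and 0.91, and the trophectoderm list 0.36 and 1.21, so in these the shIno80 median was the higher.

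The largest opposite changes were in Wnt6 and Wnt10a. In shIno80 cells Wnt6 stood at 3.23 and 3.16 at day 6, against 0.98 and 1.13 at day 4, a rise of 2.14 on the log2 scale where shNT cells fell by 1.77 (difference −3.91, limma adjusted p = 0.00318). Wnt10a stood at 2.28 and 2.12, against 0.33 and 0.49, with a difference of −3.10. Ccn4, a matricellular gene induced by Wnt, and Krt15, a basal keratin, showed the same contrast, with differences of −2.89 and −2.98. In the other direction, Padi4, a peptidylarginine deiminase, rose by 0.61 in shNT and fell by 1.74 in shIno80 (difference 2.35, limma adjusted p = 0.00187), and Serpinf1, a secreted serpin, rose by 0.81 and fell by 1.40 (difference 2.21). Klf4 changed by −0.13 in shNT and rose by 1.03 in shIno80, and Gata6, a primitive endoderm factor, changed by −0.47 and rose by 1.94. Klf4 differed between the hairpins at day 4 as well: it stood at 5.16 and 5.53 in shNT and at 2.34 and 2.08 in shIno80.

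**Figure D5:**
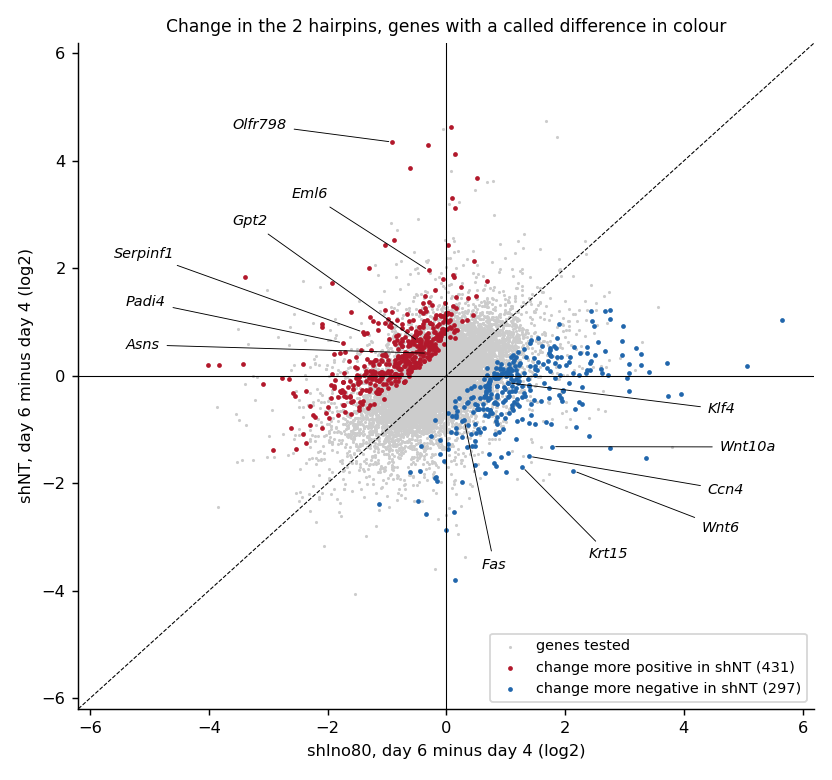
Change from day 4 to day 6 in shNT cells (vertical axis) and in shIno80 cells (horizontal axis) for 19181 genes, both as log2 differences, with the 431 genes whose change was more positive in shNT in red, the 297 more negative in blue and equality as the dashed line. Wnt6, Wnt10a, Krt15 and Ccn4 lie at the lower right and Padi4, Serpinf1 and Olfr798 at the upper left.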

How the data were processed

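RNA levels were measured on 12 single-colour Agilent arrays. The deposited scanner files hold an intensity per spot from Agilent Feature Extraction, already background-subtracted and detrended within each array but not scaled between arrays, per the file headers. In the deposited value table are log2 values, which equal a scanner file's mean spot intensities multiplied by 1 factor per column (relative tolerance 1e-06), and this match tied the scanner files to the value table's samples. The sources used here do not give how those factors were chosen.

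Values here were log2 of the processed intensity minus the array's 75th percentile. Of 41174 probes, 125 carried quality marks and were dropped, and 28652 passed because the 2 arrays of some group both had them well above background. Each gene took its brightest probe, giving 19181 genes, of which 15008 had a name. RefSeq tables (GRCm38.p6) supplied names for 22944 probes through their accession, for 6664 through the symbol and for 3108 through a former symbol, while 8458 kept the file's name. With limma 3.58.1 in R 4.3.3, 1 model held a mean per group over the 12 arrays (6 residual and 2.19 prior degrees of freedom), with Benjamini-Hochberg adjustment over all genes and a threshold of 0.05. Array number, not counting depth, limits the precision. The script was tested on simulated data.

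The text names 13 genes of the study's subject, the 12 largest rises and falls seen on all 4 arrays, the 5 largest in each direction seen on 1 day only, up to 2 per list and direction, markers that were called, and the 4 largest differences from shIno80 in each direction. Another 41 genes, and further list members given by their change alone, were chosen after their values were seen, and some genes that meet these rules are not reported here. Comparisons, the 40 gene lists (860 members, 850 on the array, 809 measured) and the markers were chosen with earlier results of these data known. Lists are described by counts and medians only. Alternatives were the scanner files' sample map, the value table, other background corrections, scalings and probe filters, the mean of a gene's probes, fits to fewer arrays, the replicate number as a block and leaving out each array. A probe cannot separate a gene from a near-identical copy.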

Additional observations from a re-analysis of the deposited data

Results flagged for a closer look

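These genes were singled out because their change from day 4 to day 6 differed between the hairpins, by limma's test of the difference (shNT change minus shIno80 change, log2, adjusted p under 0.05 over all genes). The difference was positive for S100a1 (1.67), Olfr798 (5.26), Nes (1.22), Sycp3 (1.51), Etv1 (0.61), Nkd2 (1.87), Pim1 (1.31), Gdf15 (1.59), Rpl39l (1.40), Bik (1.14), Serpinf1 (2.21), Cpb2 (2.26), Eml6 (2.26), Padi4 (2.35), Asns (0.73), Gpt2 (1.10), Mthfd2 (0.91) and Psmb9 (0.87). It was negative for Klf4 (−1.15), Gata6 (−2.41), Coch (−1.24), Dnah11 (−1.81), Dab2 (−0.77), Ddx58 (−1.38), Fst (−1.61), Wnt6 (−3.91), Wnt10a (−3.10), H1f2 (−1.39), Lama3 (−1.62), Lama5 (−0.89), Hoxd10 (−2.14), Hoxb9 (−1.51), Itgb4 (−1.13), Meis2 (−1.54), Gpx1 (−0.86), Krt15 (−2.98), Ccn4 (−2.89) and Fas (−1.13).

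Some of these had opposite calls in the 2 hairpins. Sycp3, a synapsis gene, rose by 0.84 in shNT and fell by 0.67 in shIno80, and Bik, a death gene of the BH3 class, rose by 0.59 and fell by 0.55. Ddx58 fell by 0.64 in shNT and rose by 0.74 in shIno80, on a probe that its other probes did not match in shNT (−0.48 and 0.04, not called). Fst, the antagonist of activin, fell by 0.76 and rose by 0.86, and Lama3 fell by 0.98 and rose by 0.63. Others moved the same way by unequal amounts: Rpl39l fell by 0.91 in shNT and by 2.30 in shIno80, Etv1 by 0.44 and 1.05, and Coch by 2.38 and 1.13, while Dab2, an endocytic adaptor of primitive endoderm, rose by 0.66 and 1.43. For Olfr798 the day 6 arrays of shNT stood at −3.54 and −3.72, against −8.43 and −7.54 at day 4, while in shIno80 cells the values were −7.59 and −8.03 at day 6 and −6.44 and −7.37 at day 4. Olfr798 was well above background in shNT day 6 alone of the 4 groups and Hoxd10 on no shNT day 6 array, so their differences come from measured values with no set size. No explanation was tested for any of them.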

How the results depend on the processing

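The shNT count of 3187 called genes (1503 higher, 1684 lower) stayed within 1.5 times, in total, with the value table, normexp correction and quantile scaling, median scaling, quantile scaling, a filter on all 12 arrays and the mean of a gene's probes, though normexp called 2305 higher and median scaling 1063 lower. It fell to 1484 (731 higher, 753 lower) with no filter on dim probes and was 5126 (2997 lower) with the 8 arrays of both days. It was 0 in limma, higher and lower, with 4 shNT arrays alone (7131 at an unadjusted p under 0.05), and 1 (0 higher, 1 lower) under the scanner files' map (1117 unadjusted). Leaving out 1 array gave 102 to 1372 genes, 55 to 678 higher and 47 to 733 lower. The 728 differences from shIno80 (431 positive, 297 negative) were 0 in limma under the scanner files' map, positive and negative, with 362 at an unadjusted p under 0.05. They were 1514 (790 and 724) with normexp and quantile scaling, 277 (151 and 126) with no filter, 250 and 834 in the value table, and 258 positive with median scaling. Leaving out 1 array gave 200 to 527 (102 to 371 positive, 98 to 190 negative). The cause was not tested, beyond the fewer arrays in some of these fits.

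Of 178 named called genes, 170 kept their call with normexp and quantile scaling, 170 in the value table, 151 with median scaling, 118 with no filter, 68 and 86 without replicates 1 and 2 of day 6, 102 without replicate 1 of day 4 and 12 without replicate 2 of day 4. With the replicate block the counts were 3366 and 738, and 173 of the 178 kept their call. Deviations of same-numbered arrays correlated at 0.045 between days 6 and 4, so the numbers were not taken as pairs.

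Changes reversed sign as follows (log2, the cause not tested). Under the scanner files' map they were 0.37 for Klf4, 0.79 for Cdx2, 0.61 for Gata6, 0.01 for Fst, 0.42 for Wnt6, 0.50 for Wnt10a, −0.04 for Gdf15, 0.00 for Lama5, 0.03 for Meis2, −0.38 for Serpinf1, −0.61 for Padi4, 0.04 for Krt15, 0.17 for Ccn4, −0.01 for Gpt2, −0.06 for Mthfd2, 0.37 for Ddit3 and −0.16 for Trib3. With normexp and quantile scaling Sox2 was 0.01 and Klf4 0.08, and with quantile scaling Sox2 was 0.06, Klf4 0.05 and Zfp42 0.02. Cdx2 was 0.00 in the value table. Another probe stood for Sec14l3 under the filter on all 12 arrays (0.60), and averaging probes gave 0.52 for Rb1, −0.12 for Eml6 and −0.02 for Fdft1. Leaving out 1 array gave −0.31 to 0.06 for Klf4, −0.16 to 0.06 for Zfp42, −0.17 to 0.05 for Cdx2, −0.24 to 0.10 for Ddit3 and −0.14 to 0.18 for Trib3. Signal over background limits the size of change for dim genes.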

Other observations

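Among 23 measured regulators of cell death, 4 were higher and 3 lower at day 6 than at day 4 in shNT cells, against 7.84% and 8.78% of all genes. Bnip3 stood at 3.82 and 3.22 at day 6, against 2.70 and 2.39 at day 4 (log2 0.97, limma adjusted p = 0.021), and Bak1, which opens the mitochondrial membrane, and Bcl2l1, which keeps it closed, rose by 0.40 and 0.39. Apaf1, the scaffold of the apoptosome, fell to 0.86 and 0.76, against 1.31 and 1.47 (log2 −0.58, with its other 2 probes at −0.10 and 0.09 and not called), and the caspase inhibitor gene Xiap fell to −2.43 and −2.44, against −1.91 and −1.86 (log2 −0.55). Imprinted genes had 3 rises and 2 falls among 22, against 7.84% and 8.78% of all genes. The growth-restraining adaptor Grb10 rose to 3.31 and 3.40, against 2.71 and 2.63 (log2 0.69 ± 0.11 SE; limma adjusted p = 0.00931), although 1 of its other 2 probes was at 0.00 and not called. Nnat rose by 0.69, and the maternally expressed non-coding RNA Rian fell by 0.93.

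The unfolded protein response is a branch of stress signalling that shares a kinase with the integrated stress response. It had 1 rise and 2 falls among 18 genes, against 7.84% and 8.78% of all genes, and a median of −0.31. Its factor Xbp1 stood at 2.21 and 2.23 at day 6, against 1.79 and 1.33 at day 4 (log2 0.66, limma adjusted p = 0.0369), while the ubiquitin ligase gene Syvn1 and the disulfide isomerase gene Pdia3 fell by 0.64 and 0.39. A second Syvn1 probe was at 0.21 and not called. In the Nodal, activin and TGF-beta list 4 of 24 genes rose and 2 fell, against 7.84% and 8.78% of all genes. Tgfb1 stood at −1.11 and −1.05, against −1.79 and −2.0 (log2 0.81), Ltbp3, which holds it in the matrix, rose by 0.80 (its second probe was at 0.07 and not called), and Fst fell to −3.36 and −3.52, against −2.74 and −2.63 (log2 −0.76). The basement membrane collagen gene Col4a1 stood at −1.09 and −0.80, against −2.19 and −2.15, without passing the test (log2 1.23, limma adjusted p = 0.0987).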
